A study of Drosophila melanogaster with 12 samples.

Results

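Nuclear genes of the mitochondrial respiratory chain were followed in the eye-antennal disc of Drosophila melanogaster and in whole larvae. They were taken as the genes whose current FlyBase symbol begins with ND-, Sdh, UQCR-, COX in capitals or ATPsyn, a rule on names that uses no measured value. It found 70 of 10893 genes, of which 34 belong to complex I, 5 to complex II, 8 to complex III, 11 to complex IV and 12 to complex V. Among the 70 were 61 subunit genes, 8 copies of subunit genes whose symbols end in L or L2, and 1 assembly factor of complex II, Sdhaf3. A further 18 of the 88 annotated symbols that fit the rule were not analysed here.

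The respiratory chain sits in the inner mitochondrial membrane. Complexes I and II pass electrons from NADH and succinate to ubiquinone, complex III hands them to cytochrome c, complex IV passes them to oxygen, and complex V uses the proton gradient so built to make ATP. Complex II also works in the citrate cycle. Most subunits are encoded in the nucleus, while a few core subunits of complexes I, III, IV and V are encoded in mitochondrial DNA. Several Drosophila subunit genes have copies elsewhere in the genome. Muscle is rich in mitochondria, and imaginal discs are sheets of dividing epithelium that later form adult structures.

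Polyadenylated RNA was sequenced in 12 libraries, each of which was a group of its own. The eye portion and the antenna portion of the disc were taken apart at 96 and 120 h after egg laying. Whole discs were taken at 72, 96 and 120 h and at white puparium formation, abbreviated WPP, the start of metamorphosis. A further library held discs with the mouthparts still attached at 72 h, and whole larvae were taken at 72, 96 and 120 h. All ages were set to within 1 h, and all animals were of strain w[11-18], so the mutant white allele of that strain was shared by every group. Neither the sex of the animals nor how many were pooled in a library is stated in the labels.

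Levels were deposited as 1 normalized value per gene and library, read here as FPKM, which are fragment numbers divided by transcript length and by library size. Library sums ran between 939303 FPKM in the 120 h antenna portion and 2210255 FPKM in 72 h larvae, and between 8212 and 9664 genes reached 1 FPKM. The depth in reads is unknown. Marker genes fitted the labels by the limma tests described later. All 8 eye-antennal disc genes tested, such as ey and Dll, were higher in disc than in larva. All 6 eye genes were higher and all 5 antenna genes lower in the eye portion than in the antenna portion. The summed level of 11 muscle genes, however, differed strongly between libraries. It was 26259, 17951 and 5867 FPKM in larvae at 72, 96 and 120 h. In whole discs it was 7427, 2116 and 267 FPKM at the same ages and 69.4 FPKM at WPP, and it reached 13547 FPKM in discs with mouthparts. It was 587 and 53.0 FPKM in the eye portion at 96 and 120 h, against 5357 and 369.7 FPKM in the antenna portion. The summed level of 9 fat body genes lay between 15160.4 and 52707 FPKM in larvae, against 173 to 999 FPKM in libraries of discs or disc portions.

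Subunit genes were among the most abundant messages in every library. Their median level stood between percentile 91.3 of all genes, in 120 h larvae, and percentile 96.4, in discs with mouthparts. Of the 70 genes, 30 had at least 100 FPKM in all 12 libraries. Outside ND-B8, subunit levels ran between 15.6 FPKM, for ND-AGGG of the complex I membrane arm in 120 h larvae, and 6241 FPKM, for ATPsynC in 72 h larvae. ATPsynC encodes the subunit that forms the rotating ring of ATP synthase. Complex I subunits had the lowest median of the 5 complexes in all 12 libraries, at WPP by under 1 FPKM, and complexes III, IV and V stood above complexes I and II in every library. In 72 h larvae the median was 282 FPKM for complex I, 405 FPKM for complex II, 792 FPKM for complex III, 1140 FPKM for complex IV and 966 FPKM for complex V. In 72 h discs it was 194, 241, 633, 754 and 675 FPKM in the same order. Together the 61 subunit genes made up 2.23, 1.82 and 0.649% of all FPKM in larvae at 72, 96 and 120 h, and 2.68, 1.95 and 1.30% in discs.

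**Figure D1:**
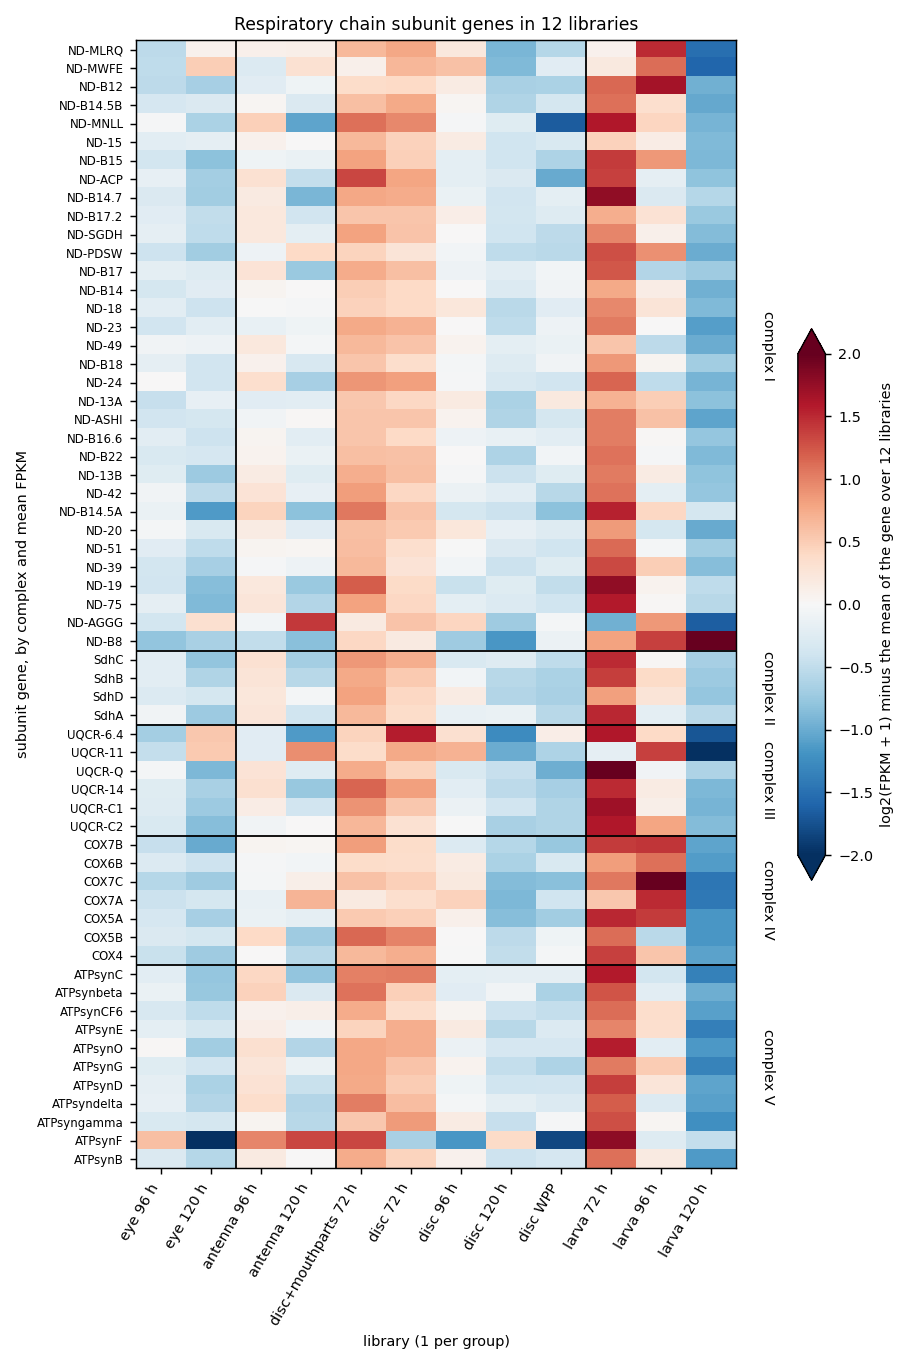
Each row is 1 of 61 subunit genes, grouped by complex, and each column 1 of 12 libraries; colour gives log2(FPKM + 1) minus the gene's own mean over the 12 libraries. Larvae at 72 h hold the highest value of 48 genes and larvae at 120 h the lowest value of 49.

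Most subunit genes shared this profile. Across the 12 libraries, the correlation of a subunit gene with the median of the other subunits had a median of 0.92, and it was at least 0.9 for 37 of 61 genes. These points share their libraries and library scale, so the values are a description. The 5 genes below 0.6 were ND-B8, ND-AGGG, UQCR-11, ATPsynF and ND-MWFE. Each has an annotated transcript under 600 nt, as have 27 of the 61 subunit genes. The longest transcripts of UQCR-11, ND-AGGG and ND-MWFE have 1083, 745 and 728 nt. The authors' deposited table assigns every gene to 1 of 11 clusters. By that assignment, 32 of 61 subunit genes (52.5%) fell into cluster 6, which holds 14.7% of all genes, and 23 (37.7%) into cluster 7, which holds 16.1%.

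The highest level came from 72 h larvae for 48 of the 61 subunit genes, and the lowest from 120 h larvae for 49. With 1 library per group, change with age was tested over disc and larva together. A limma fit to log2(FPKM + 1) of 6 libraries took tissue and age as terms and used the residual spread of the matched pairs as error, with 2 residual degrees of freedom. Since the labels give no repeat of any group, its p-values measure only this spread. The 120 h against 72 h term was added after the values had been seen. All 61 subunit genes had a negative difference, with a median of -1.58 on the log2 scale, against 0.27 over 9993 genes tested. Subunit medians by complex were -1.43, -1.44, -1.86, -1.84 and -1.68 for complexes I to V. In whole tissue, fewer cells of a type and less RNA per cell cannot be told apart.

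After Benjamini-Hochberg adjustment over all genes, limma called 1 member lower at 120 h than at 72 h and 0 higher. The background was 2.88% of all genes lower and 1.41% higher, 4.29% in all. The member was UQCR-6.4, a small accessory subunit of complex III. It had 3593, 1562 and 359 FPKM in larvae at 72, 96 and 120 h, and 3488, 1474 and 492 FPKM in discs. In the libraries of this fit, both tissues gave an ordered series of similar size. The difference was -3.07 on the log2 scale (SE 0.42, limma adjusted p = 0.00404). Disc libraries outside the fit departed from this series. UQCR-6.4 had 1604 FPKM in 72 h discs with mouthparts and 1289 FPKM at WPP. At 120 h it had 1706 FPKM in the eye portion and 539 FPKM in the antenna portion, both above the whole disc. Its shortest annotated transcript has 324 nt. UQCR-6.4 overlaps POSH on the opposite strand, and the counting is not stated to use strand. An opposite-strand overlap is annotated for 29 of the 61 subunit genes. At an unadjusted p under 0.05, 59 of the 70 members were past the threshold, beside 21.2% of all genes, and 58 of the 61 subunit genes were lower, beside 10.3% of all genes.

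A set of 17 subunits chosen to stand for the 5 complexes, called core members here whether or not they are catalytic, shared the direction without passing the adjusted threshold. In complex V, ATPsynC had 6241, 1613 and 809 FPKM in larvae at 72, 96 and 120 h, and 4230.2, 1814 and 1822 FPKM in discs. Its values were lowest at 120 h in larvae, while in discs the 96 and 120 h values were alike. The difference was -2.08 (SE 0.50, limma adjusted p = 0.0506). Other complex V differences were -1.91 for ATPsyngamma, the central stalk, -1.89 for ATPsynO of the stator, and -1.39 for ATPsynbeta, the catalytic subunit. In complex IV, the accessory subunits COX5A, COX7C, COX5B and COX4 gave -1.99, -1.92, -1.89 and -1.84. In complex III, UQCR-11 gave -1.87, and the core proteins UQCR-C1 and UQCR-C2 gave -1.77 and -1.71. In complex II, the iron-sulfur subunit SdhB gave -1.60, the membrane anchors SdhC and SdhD -1.58 and -1.29, and the flavoprotein SdhA -1.28. In complex I, ND-75, which carries iron-sulfur clusters, gave -1.42, and ND-51, which binds NADH, gave -1.22. For the core members the limma adjusted p ran between 0.0506 for ATPsynC and 0.19 for SdhA.

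Muscle genes were lower with age too. Of 10 tested, limma called 7 lower at 120 h than at 72 h, with a median difference of -3.59. Their part in the subunit result was not tested. The background of 4.29% holds for the main fit only, and no share of all genes is given for the alternatives below. In a fit without a 72 h or 120 h library, the level at that age rested on the other tissue alone. Copies counted as higher below include genes whose deposited values reached 1 FPKM only in larvae at 96 and 120 h. The count of members called was 13, all lower, when genes needed 5 FPKM in 2 libraries, 4 with a pseudocount of 0.1 and 0 with median-ratio scaling of libraries. It was 30 without the 72 h disc library, of which 25 were lower and 5, all copies, higher. After rescaling on genes of at least 200 nt it was 5, with 2 subunits lower and 3 copies higher. It was 4 without the 72 h larval library, 2 without the 96 h larval library and 0 without either 120 h library, which left UQCR-6.4 at adjusted p = 0.131 without the disc and 0.221 without the larva. Over all alternatives the limma adjusted p of UQCR-6.4 ran between 3.8e-06 and 0.221.

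**Figure D2:**
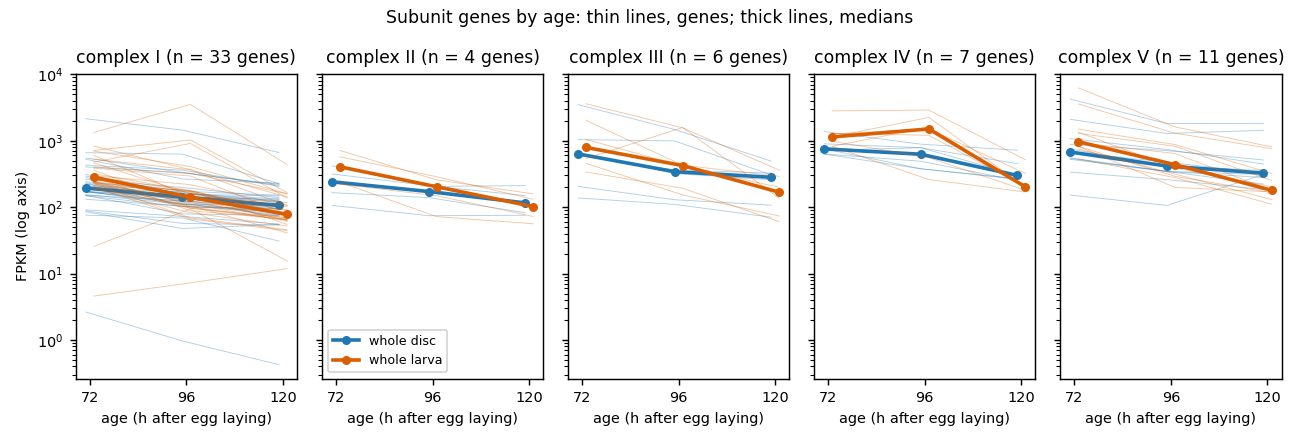
FPKM on a log axis against age in hours after egg laying, 1 panel per complex; thin lines are genes, thick lines with points are medians, blue is whole disc and orange whole larva. On the deposited scale the larval line lies above the disc line at 72 h and below it at 120 h in every complex, and only in complex IV is the larval median highest at 96 h.

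Each tissue was also followed on its own, as single pairs of libraries with no test. In larvae, 60 of 61 subunit genes were lower at 120 h than at 72 h, with a median difference of -2.14 on the log2(FPKM + 1) scale, and 51 were lower at both steps. The median over all genes was 0.54 in this pair. Past 2-fold were 60 members lower and 6 higher, beside 13.5% and 26.7% of all genes. In discs 60 of 61 were also lower, with a median of -0.99 against -0.02 over all genes, and 54 were lower at both steps. Past 2-fold were 29 members lower and 1 higher, beside 12.1% and 8.5% of all genes. The exceptions were ND-B8 in larvae and ATPsynF in discs. The counts of 60 and 60 were the same under each of the scalings tried. The count lower at both steps was not: in discs it was 54 with median-ratio scaling, 31 after rescaling on genes of at least 200 nt and 43 by percentile, and in larvae 50, 48 and 47 in the same order.

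Between 96 and 72 h in larvae, 28 members were at least 2-fold lower and 8 at least 2-fold higher, provided that the higher of the 2 libraries reached 5 FPKM. The background by the same size rule, which involves no test, was 13.4% of genes lower and 7.6% higher. The largest in each complex were ND-B14.7 (-2.06) of the complex I membrane arm, SdhA (-1.71), UQCR-Q (-2.24), COX5B (-1.65) and ATPsynF (-2.05). Higher at 96 h were ND-AGGG (1.83), UQCR-14L (3.51), COX4L (2.74) and ATPsynepsilonL (1.33), among others. Complex IV had a subunit median difference of 0.04 at this step, against -0.87, -1.23, -1.26 and -1.25 for complexes I, II, III and V. COX7C, for example, had 2241 FPKM at 96 h against 1139.8 FPKM at 72 h. Only 4 of 7 complex IV subunits were highest at 96 h in larvae, while COX4, COX5A and COX5B were lower at both steps. After rescaling on genes of at least 200 nt, 5 of the 7 were lower at both steps. All 10 subunit genes higher in larvae at 96 h than at 72 h have an annotated transcript under 600 nt. Core members outside complex IV lay between -1.95 (ATPsynC) and -0.57 (SdhD), except UQCR-11 at 1.55.

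Between 120 and 96 h in larvae, 36 members were at least 2-fold lower and 3 higher, beside backgrounds of 6.83% and 20.8%. Here complex IV had the most negative subunit median, -2.49, against -0.98, -0.86, -1.36 and -1.27 for complexes I, II, III and V. UQCR-11 (-3.53) and COX7C (-3.48) led. COX7C was 199.5 FPKM at 120 h. In complex I the largest was ND-MLRQ (-3.01), with 437 FPKM at 120 h against 3524 FPKM at 96 h. Its mammalian counterpart is now assigned to complex IV. In complex II the largest was Sdhaf3 (-1.19), followed by SdhB (-1.12), and in complex V ATPsynG (-1.83). The higher ones included COX5BL (1.72). The remaining core members lay between -2.57 (COX5A) and -0.35 (SdhA).

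In whole discs the subunit medians of both steps were closer to 0. Between 96 and 72 h, 4 members were at least 2-fold lower and 1 higher, beside 9.24% and 4.2% of all genes, with a subunit median of -0.56 against 0.03. They were UQCR-6.4 (-1.24), ATPsynC (-1.22), SdhC (-1.03) and UQCR-14 (-1.03), and UQCR-14L (1.14). The other core members lay between -0.99 (COX5B) and -0.07 (UQCR-11). Between 120 and 96 h, 8 members were lower and 1 higher, beside 4.28% and 4.94%, with a subunit median of -0.41 against -0.02. In complex I the largest was ND-MWFE (-1.48), in complex III UQCR-14L (-2.39), and in complex IV COX7A (-1.36). ATPsynF was higher (1.54). The others past the rule were UQCR-11 (-1.70), UQCR-6.4 (-1.58), ND-AGGG (-1.13), ND-MLRQ (-1.12) and COX7C (-1.06). Each of the 9 has an annotated transcript under 600 nt, beside 27 of all 61 subunit genes. For the remaining core members the step lay between -0.95 (COX5A) and 0.16 (ATPsynbeta).

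At WPP the subunit levels of the disc lay near those at 120 h. Subunit medians were 145 FPKM at WPP and 149 FPKM at 120 h, and the median difference was 0.02, against -0.11 over all genes. Its sign was not stable, being 0.14 with median-ratio scaling and -0.24 after rescaling on genes of at least 200 nt. Only 1 member was at least 2-fold higher and 2 lower, beside 4.22% and 7.83% of all genes. UQCR-6.4 was higher (1.39), and ATPsynF (-2.21) and ND-MNLL (-1.42), of the complex I membrane arm, were lower. Core members lay between -0.56 (ATPsynbeta) and 0.45 (COX4). The muscle sum was 69.4 FPKM at WPP and 267 FPKM at 120 h, and its part in the subunit values was not tested.

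Whether the disc held more or less of these messages than the larva was asked at 3 ages. In the limma fit, 1 member was lower in disc than in larva and 0 higher after Benjamini-Hochberg adjustment. The background was large, 14.2% of all genes lower and 35.9% higher, 50.1% in all. The subunit median was -0.09 on the log2 scale, against 0.62 over all genes. Its sign depended on the scale, being -0.84 against -0.05 over all genes with median-ratio scaling, and 0.37 against 0.99 when genes of at least 200 nt were rescaled to a common total. On each of these scales the subunit median lay below that of all genes. By complex it was -0.07, -0.23, -0.25, -0.31 and 0.03 for complexes I to V. At an unadjusted p under 0.05, 4 members were past the threshold, beside 58.3% of all genes. Of these ND-B8, COX4L and COX7AL were lower, beside 16.9% of all genes, and Sdhaf3 was higher. COX4L and COX7AL passed the filter only through larval libraries.

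The member called was ND-B8, an accessory subunit of complex I. It had 2.64, 0.969 and 0.425 FPKM in discs at 72, 96 and 120 h, against 4.59, 7.26 and 11.9 FPKM in larvae. Larvae were higher at each age, and the gap widened. The difference was -1.95 (SE 0.55, limma adjusted p = 0.0186). It lost the call when a 96 h or a 120 h library was left out, with limma adjusted p between 0.109 and 0.134 and 0 members called. Leaving out either 72 h library gave 6 members called, with the same ND-B8 difference (-2.62) as leaving out both. In each such fit the remaining library of that age was fitted exactly. The difference then rested on the other ages, with fewer residual degrees of freedom than the 2 of the full fit. Over all alternatives the limma adjusted p of ND-B8 ran between 6.08e-05 and 0.134. ND-B8 overlaps Gs1l on the opposite strand, and its level was the lowest of the 61 subunits in all 12 libraries. In 120 h larvae it was near that of ND-AGGG, at 11.9 FPKM against 15.6 FPKM. Among core members the difference lay between -0.67 for COX5A and 0.48 for UQCR-11. ATPsynO (0.03), ATPsynbeta (0.04), SdhD (-0.11) and ND-51 (-0.12) were closest to 0. Further values were ND-75 (-0.37), SdhA (-0.23), SdhB (-0.37), SdhC (-0.23), UQCR-C1 (-0.28), UQCR-C2 (-0.62), COX4 (-0.20), COX7C (-0.61), COX5B (0.35), ATPsyngamma (0.15) and ATPsynC (0.26). Their limma adjusted p ran between 0.21 and 0.965.

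The direction of the difference depended on age. The disc value was above the larval value for 6 of 61 subunit genes at 72 h, for 16 at 96 h and for 59 at 120 h, and 53 genes were lower at 72 h and higher at 120 h. These counts move with the scale. They were 2, 0 and 37 with median-ratio scaling, 7, 48 and 60 after rescaling on genes of at least 200 nt, and 21, 27 and 59 by percentile within the library, so on each scale the count was largest at 120 h. The subunit median of disc minus larva was -0.61 at 72 h, -0.24 at 96 h and 0.50 at 120 h, against 0.73, 0.90 and 0.43 over all genes. After rescaling on genes of at least 200 nt the 96 h median was 0.51, and with median-ratio scaling the 120 h median was 0.04. SdhA had 106, 74.4 and 75.4 FPKM in discs at these ages, against 238, 72.0 and 56.2 FPKM in larvae. ATPsynbeta had 2099, 1283 and 1435 FPKM in discs, against 3573, 1297 and 759 FPKM in larvae. For both genes, the larval values spread more widely over the ages than the disc values. Whether the tissues differed in their change with age was not tested.

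By the size rule, 12 members were at least 2-fold lower and 2 higher in disc than in larva at 72 h, beside 15.8% and 39.1% of all genes. The largest in each complex were ND-19 (-1.40), SdhA (-1.15), UQCR-Q (-1.72), COX5A (-1.03) and ATPsynF (-2.44), and the higher ones were ND-AGGG (1.53) and ATPsynepsilonL (1.04). UQCR-11 was at 0.94, ND-75 (-1.17), UQCR-C1 (-1.15) and UQCR-C2 (-1.29) were past the rule, and the other core members lay between -0.85 (SdhB) and -0.12 (COX5B). At 96 h, 12 were lower and 0 higher, beside 16.6% and 44.4%, with COX4L (-2.99) and COX7AL (-2.48) the lowest in complex IV, ND-B8 (-2.07) in complex I and UQCR-14L (-1.51) in complex III. The complex IV subunits COX7C (-1.84) and COX7B (-1.71) followed. COX5A (-1.29) was also past the rule, and the other core members lay between -0.80 (UQCR-C2) and 0.54 (COX5B). At 120 h, 5 were lower and 3 higher, beside 18.9% and 25.7%. The higher ones were ATPsynC (1.17), UQCR-11 (1.16) and Sdhaf3 (1.05), and the lower ones were ND-B8 (-3.17) and the copies COX4L (-4.94), COX7AL (-3.66), UQCR-14L (-3.47) and COX5BL (-3.40). Apart from these, all core members lay between 0.18 (SdhB) and 0.92 (ATPsynbeta). Medians by complex were 0.47, 0.30, 0.41, 0.53 and 0.82 at 120 h. In larvae the muscle sum was lower at 120 h than at 72 h as well, and all 10 muscle genes tested were lower in disc than in larva. Their part in this order was not tested. With median-ratio scaling 54, 56 and 5 members were past the rule at 72, 96 and 120 h, all of them lower in disc.

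**Figure D3:**
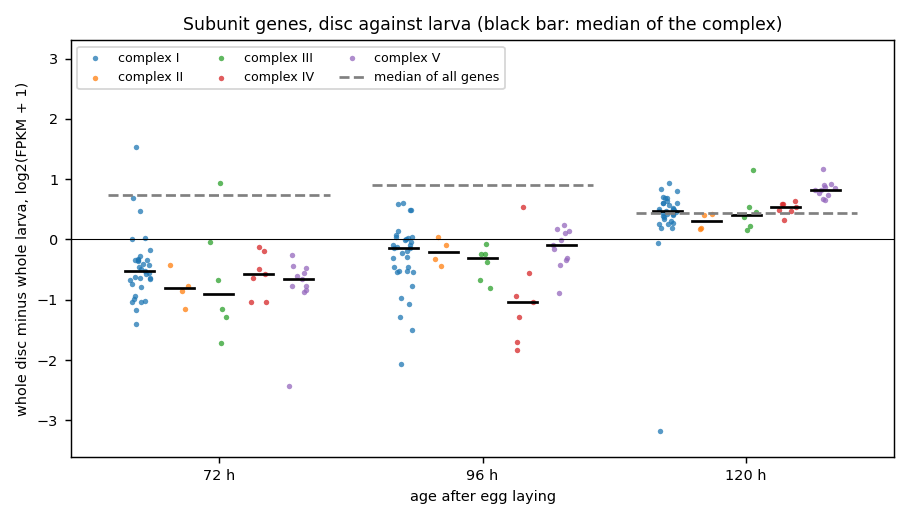
Difference between whole disc and whole larva in log2(FPKM + 1) for each of 61 subunit genes at 72, 96 and 120 h, coloured by complex; black bars are medians of a complex and grey dashed lines the median of all genes. On the deposited scale complex medians lie below 0 at 72 and 96 h and above 0 at 120 h, where 59 of 61 points are above 0; the 96 h median turns positive (0.51) after rescaling on genes of at least 200 nt.

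Of the 5 members past the rule and lower in disc than in larva at 120 h, 4 were copies of subunit genes. Testis-biased copies of this kind are known in Drosophila. COX4L, a copy of COX4, had 0.516, 0.477 and 0.229 FPKM in discs at 72, 96 and 120 h, against 0.745, 10.7 and 36.8 FPKM in larvae. It was near 0 in every disc library and in 72 h larvae. In 120 h larvae it made up 17.0% of the FPKM of COX4L and COX4 together. COX5BL had 1.10, 1.93 and 1.39 FPKM in discs, against 0.939, 6.66 and 24.2 FPKM in larvae. COX7AL had 0.704, 0.456 and 0.600 FPKM in discs, against 0.568, 7.13 and 19.3 FPKM in larvae. These 3 complex IV copies shared the same order over larval ages, while their counterparts COX4, COX5B and COX7A were lowest in 120 h larvae, at 179, 169 and 209.9 FPKM.

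The complex III copy UQCR-14L had 2.65, 7.05 and 0.535 FPKM in discs at 72, 96 and 120 h, against 1.01, 21.9 and 16.0 FPKM in larvae. ATPsynepsilonL departed from the others, with 9.87, 12.9 and 11.0 FPKM in discs and 4.28, 12.2 and 12.7 FPKM in larvae, and 16.6 FPKM in the WPP disc. ND-51L2, UQCR-6.4L and COX7AL2 stayed under 5 FPKM in all 12 libraries and are given as a group. COX4L and these 3 were listed at 0 in at least 1 library. For the 8 copies the limma median was -1.41 for disc against larva and 0.94 for 120 h against 72 h. In these comparisons 0 copies were called, beside 50.1% and 4.29% of all genes. At an unadjusted p under 0.05, COX4L (-2.71) and COX7AL (-2.01) were lower in disc, beside 16.9% of all genes lower. For age 0 copies were past it, beside 21.2% of all genes in either direction. COX4L and COX7AL were under 1 FPKM in each disc library of that fit. They passed the filter only through larvae at 96 and 120 h, so they could only be lower in disc. With age the copies depended on the setting: without the 72 h disc library limma called 5 higher at 120 h than at 72 h, namely COX4L (3.95), COX7AL, COX5BL, UQCR-14L (2.59) and UQCR-6.4L (2.12). After rescaling on genes of at least 200 nt it called COX4L (2.11), COX5BL (2.08) and COX7AL (1.89) higher.

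With the 72 h pair left out, an alternative chosen after seeing the data, limma called 6 members lower in disc than in larva. They were COX4L (-3.96), COX7AL (-3.07), ND-B8 (-2.62), UQCR-14L (-2.49), UQCR-6.4L (-2.42) and COX5BL (-2.39), and 5 of the 6 are copies. In discs at 96 and 120 h, COX4L, COX7AL, UQCR-6.4L and ND-B8 were under 1 FPKM. These genes passed the filter only through the larval libraries, so they could only be lower in disc. The share of all genes called in this setting is not given here. The subunit median was then 0.15, against 0.65 over all genes. Of a list of 15 male germ line genes only 2, mia and tomb, were measured, so the share of germ line in the larval libraries could not be followed.

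**Figure D4:**
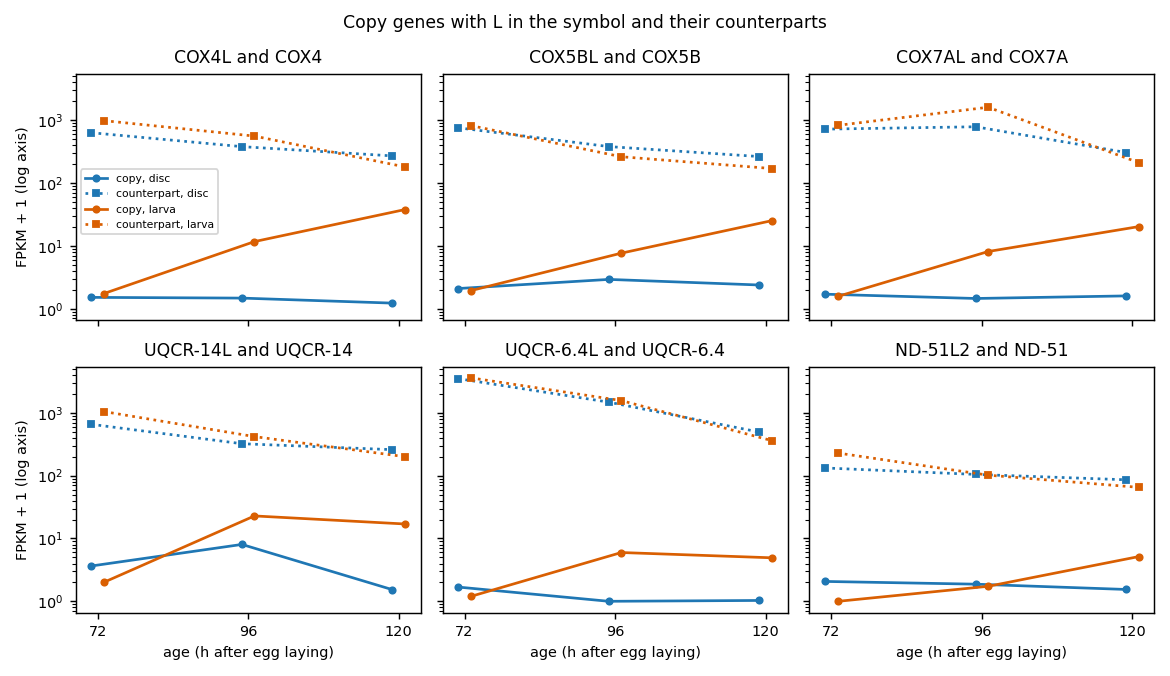
FPKM + 1 on a log axis against age in hours for 6 L copies and their counterparts without L, in whole disc and whole larva. COX4L, COX5BL and COX7AL reach 36.8, 24.2 and 19.3 FPKM in 120 h larvae and stay under 2 FPKM in discs, while their counterparts are lowest in larvae at that age.

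Inside the disc, the age step was tested over the eye portion, the antenna portion and the whole disc, again with limma and 2 residual degrees of freedom. The whole disc contains both portions, so the 3 tissues are not independent kinds of cell. Of 67 members tested, 0 passed Benjamini-Hochberg adjustment for 120 h against 96 h in either direction, beside 0.947% of genes higher and 1.17% lower, 2.11% in all. At an unadjusted p under 0.05, 16 members were past the threshold (15 subunits lower and COX7AL2 higher), beside 18.2% of all genes in either direction and 11.6% lower. Of 61 subunit genes 58 had a negative difference, with a median of -0.35 against -0.08 over 9081 genes. By complex it was -0.28, -0.46, -0.42, -0.35 and -0.40 for complexes I to V.

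Among core members the largest were ATPsynO (-0.62), ATPsynC (-0.58), COX5B (-0.57), SdhB (-0.56), ND-75 (-0.54) and SdhC (-0.50). COX5A (-0.44), COX4 (-0.44), ATPsyngamma (-0.43), SdhA (-0.43), UQCR-C1 (-0.42), ATPsynbeta (-0.40), UQCR-C2 (-0.37), SdhD (-0.36), COX7C (-0.35) and ND-51 (-0.19) followed, and UQCR-11 was at 0.15. Their limma adjusted p ran between 0.179 and 0.942. SdhB had 145 FPKM in the eye portion at 120 h against 189 FPKM at 96 h, and 149.6 FPKM in the antenna portion at 120 h against 263 FPKM at 96 h. With the portions alone, ND-B14.5A, an accessory subunit of complex I, was called lower at 120 h (-1.13, limma adjusted p = 0.0328, with a range of 0.0325 to 0.667 over the alternatives). It had 45.9 FPKM in the eye portion at 120 h against 91.9 FPKM at 96 h, and 56.9 FPKM in the antenna portion at 120 h against 139 FPKM at 96 h. Muscle genes were lower here too, 6 of 10 called with a median of -3.19, and their part in the subunit values was not tested.

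By the size rule, 1 member was lower and 3 higher at 120 h than at 96 h in the eye portion, beside 5.23% and 4.5% of all genes. They were ATPsynF (-2.63), and UQCR-6.4 (1.21), UQCR-11 (1.00) and ND-MWFE (1.00). Other core members lay between -0.73 (ATPsynO) and -0.04 (ATPsyngamma). In the antenna portion, 8 members were lower and 2 higher, beside 8.24% and 3.88%. The largest in each complex were ND-MNLL (-1.53), UQCR-14 (-1.08), COX5B (-1.11) and ATPsynC (-1.20), and ND-AGGG (1.47) and UQCR-11 (1.16) were higher. Other core members lay between -0.98 (SdhC) and 0.16 (COX7C). The subunit medians of these steps were -0.27 in the eye portion and -0.35 in the antenna portion.

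The eye portion had slightly lower levels than the antenna portion. At 96 h all 61 subunit genes were lower in the eye portion, and at 120 h 48 of 61 were. The counts were 61 and 46 with median-ratio scaling, 61 and 56 after rescaling on genes of at least 200 nt, and 59 and 40 by percentile. The subunit median was 159 FPKM in the eye portion and 221 FPKM in the antenna portion at 96 h, and 129.8 FPKM in the eye portion and 153 FPKM in the antenna portion at 120 h. In the limma fit, 59 of 61 had a negative difference, with a median of -0.32 against -0.02 over all genes. Yet 0 of 67 members passed Benjamini-Hochberg adjustment, beside 1.39% of genes lower and 1.75% higher, 3.14% in all. At an unadjusted p under 0.05, 4 were lower, beside 6.81% of all genes lower and 14.8% in either direction. These were ND-13B (-0.45) and ND-39 (-0.46) of complex I, COX7B (-0.78) of complex IV and ATPsynB (-0.53) of the complex V peripheral stalk.

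The 5 complexes had similar medians of -0.29, -0.32, -0.35, -0.34 and -0.33 for complexes I to V. Core members lay between -0.68 for COX7C and -0.08 for ATPsyngamma, with limma adjusted p between 0.398 and 0.942. ATPsynbeta had 1369 FPKM in the eye portion and 2067 FPKM in the antenna portion at 96 h, and 891 FPKM in the eye portion and 1224 FPKM in the antenna portion at 120 h. At 96 h no member passed the size rule, beside 6.26% of genes lower and 4.21% higher, and the core members lay between -0.69 (COX5B) and -0.21 (COX5A). At 120 h, 5 members were lower and 1 higher, beside 4.17% and 6.13%. They were ATPsynF (-3.37), ND-AGGG (-1.09), ND-PDSW (-1.09), COX7B (-1.05) and COX7A (-1.03), and UQCR-6.4 (1.66). Core members lay between -0.86 (UQCR-C2) and 0.35 (COX5B) at this age. Muscle genes were lower in the eye portion, 6 of 10 called with a median of -2.92. At 96 h the muscle sums were 587 FPKM in the eye portion and 5357 FPKM in the antenna portion, and their part in the subunit difference was not tested.

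Discs with mouthparts attached were set against discs without them at 72 h. Of 61 subunit genes 48 were higher with mouthparts, with a median difference of 0.15 against -0.05 over all genes. Past the size rule were 1 member higher, ATPsynF (1.98), and 1 lower, UQCR-6.4 (-1.12), beside 7.53% and 1.37% of all genes. The subunit medians were 373 FPKM with mouthparts and 294 FPKM without. Core members lay between -0.40 (UQCR-11) and 0.61 (ATPsynbeta). The muscle sums were 13547 FPKM with mouthparts and 7427 FPKM without, and their part was not tested.

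A handful of members with at least 1 short annotated transcript did not follow the rest. ATPsynF, a subunit of the membrane part of ATP synthase, had 361 and 57.2 FPKM in the eye portion at 96 and 120 h, 468 and 602 FPKM in the antenna portion, and 106 and 310.1 FPKM in whole discs. The whole disc lay outside the range of its 2 portions at 96 h and inside it at 120 h. ATPsynF overlaps CG13587 and ND-MWFE overlaps TppII on the opposite strand, while UQCR-11 has no such overlap. UQCR-11 had 438 and 879 FPKM in the eye portion at 96 and 120 h, 521 and 1164 FPKM in the antenna portion, and 993 and 305 FPKM in whole discs. For UQCR-11 the whole disc was above both portions at 96 h and below both at 120 h. ND-MWFE, of the complex I membrane arm, had 292 and 586 FPKM in the eye portion, 343 and 514 FPKM in the antenna portion, and 628 and 225 FPKM in whole discs, and so showed the same crossing.

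To set this against other members, the whole disc was compared with the mean of the portions weighted by the share that best fitted genes at least 4-fold apart between them, 63% eye at 96 h and 62% at 120 h. Among 34 subunit genes whose annotated transcripts are all at least 600 nt, 0 deviated by more than 2-fold at either age. Among 26 other subunit genes compared, 3 (11.5%) deviated at 96 h and 6 (23.1%) at 120 h, beside 5.69 and 5.76% of all genes. Over 61 subunit genes, the 120 h minus 96 h difference was ranked against the shortest annotated transcript. Spearman's rho was 0.39 in whole discs, -0.36 in the eye portion, -0.25 in the antenna portion and 0.47 in larvae. At 96 h against 72 h it was -0.49 in larvae and -0.04 in whole discs. With the longest transcript the values were 0.28, -0.20, -0.20, 0.30, -0.35 and 0.07 in the same order. Neither the comparison by length nor the 600 nt limit was among the planned comparisons. These are correlations across genes, which share libraries and are not independent replicates. The 34 genes of at least 600 nt were lower at both age steps in larvae in 34 cases and in discs in 29 cases. They were higher in disc than in larva in 1, 14 and 34 cases at 72, 96 and 120 h.

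**Figure D5:**
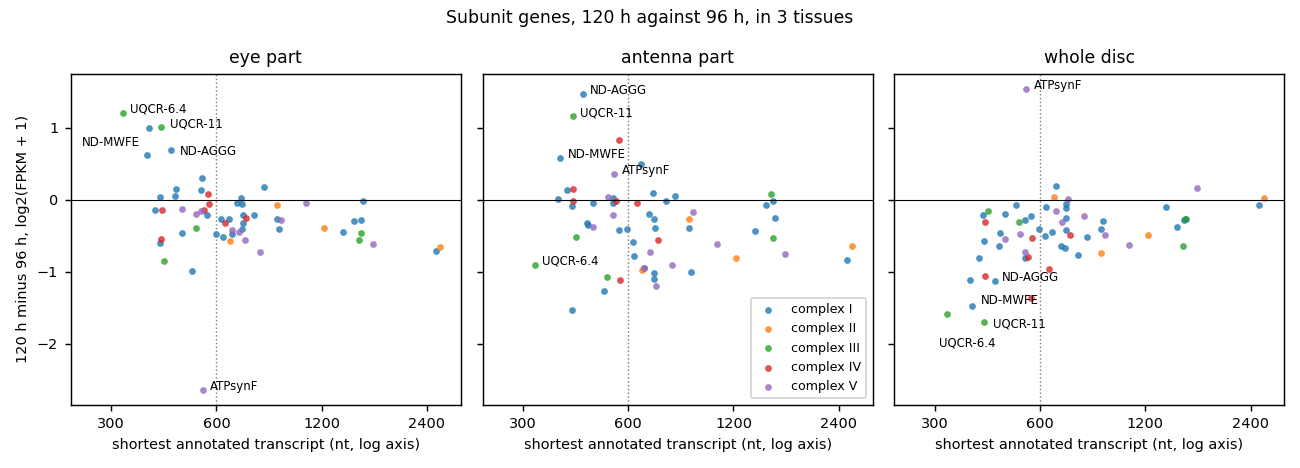
Difference between 120 h and 96 h in log2(FPKM + 1) for each subunit gene against its shortest annotated transcript in nt on a log axis, in the eye portion, the antenna portion and the whole disc; colours are complexes and the dotted line marks 600 nt. Some labelled genes with short transcripts lie far from most others, but in the antenna portion UQCR-6.4 (-0.90) and ATPsynF (0.36) lie among them. UQCR-11 is at -1.70 in the whole disc, 1.00 in the eye portion and 1.16 in the antenna portion.

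Some subunit genes have symbols outside the rule. Of a list of 10, 7 were measured, and limma with Benjamini-Hochberg adjustment called 2 lower at 120 h than at 72 h and 0 higher, beside 2.88% and 1.41% of all genes, with all 7 negative and a median of -1.92. These were ox (-2.88, limma adjusted p = 0.00781), a small complex III subunit, and Cyt-c1 (-2.54, limma adjusted p = 0.0445), which carries the haem of cytochrome c1. In disc against larva 0 of the 7 were called by limma, beside 50.1% of all genes, with a median of -0.12. At an unadjusted p under 0.05 the count was also 0, beside 58.3% of all genes. The complex IV gene cype had 1764, 6363 and 413 FPKM in larvae at 72, 96 and 120 h. Its value was highest at 96 h, as for 4 of the 7 complex IV subunits above on the deposited scale. Of the mitochondrial genome only 1 gene of 13 was measured and it was not tested.

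Neighbouring pathways were read from lists of genes in the same fit. Of 12 citrate cycle and pyruvate dehydrogenase genes measured, 1 was lower in disc (Ogdh, -1.15, limma adjusted p = 0.0209) and 0 higher, beside 14.2% and 35.9% of all genes. The list median was -0.42, against 0.62 over all genes, and 0.03 after rescaling on genes of at least 200 nt. At 120 h against 72 h, 2 of the 12 were lower, beside 2.88% of all genes, kdn, the citrate synthase (-2.74, limma adjusted p = 0.037), and Mdh2, the malate dehydrogenase (-2.24, limma adjusted p = 0.0471), and the median was -1.63.

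Of 11 glycolytic genes measured, 5 were lower in disc than in larva and 0 higher, beside 14.2% and 35.9% of all genes, with a median of -1.28 against 0.62 over all genes. They were Ldh, the lactate dehydrogenase (-2.67, limma adjusted p = 0.00142), Ald1 (-1.93), Pgi (-1.82), Pglym78 (-1.76) and Gapdh1 (-1.75). The count of 5 was the same with median-ratio scaling and after rescaling on genes of at least 200 nt, where the share of all genes called is not given. With age limma called 0 of the 11 at 120 h against 72 h, beside 4.29% of all genes. At an unadjusted p under 0.05, 6 were lower, beside 10.3% of all genes lower. All 11 were negative with a median of -1.49.

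Genes for the upkeep and transcription of mitochondrial DNA and its regulators were also followed. Of 11 measured, 7 were higher in disc than in larva and 0 lower, beside 35.9% and 14.2% of all genes, with a median of 1.34 against 0.62 over all genes. They were srl, the fly PGC-1 homologue (2.10, limma adjusted p = 0.0023), mtSSB (1.57), Ets97D (1.54), TFAM (1.48), mtTFB2 (1.45), mtDNA-helicase (1.34) and ewg (1.34). The count was 3 with median-ratio scaling and 9 after rescaling on genes of at least 200 nt. The share of all genes called on those scales is not given, so these counts describe the scale as much as the list. With age limma called 0 of the 11 at 120 h against 72 h, beside 4.29% of all genes, with a median of -0.24. At an unadjusted p under 0.05, 1 was past the threshold (higher), beside 21.2% of all genes in either direction.

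Among 10 assembly factors measured, 1 was called higher in disc and 0 lower, beside 35.9% and 14.2% of all genes. It was Coa7 (1.14, limma adjusted p = 0.0228). At 120 h against 72 h, 1 was called lower and 0 higher, beside 2.88% and 1.41%. It was Cox10, which makes haem for complex IV (-1.80, limma adjusted p = 0.0412). With age 9 of the 10 were negative, and Sirup was positive (1.96). Sirup had 36.1, 315 and 687 FPKM in larvae at 72, 96 and 120 h. Sdhaf3, the assembly factor among the members, had 69.3, 53.7 and 29.3 FPKM in discs at 72, 96 and 120 h, against 46.4, 32.5 and 13.7 FPKM in larvae. It was thus higher in disc at each age, with a difference of 0.78 that did not pass the adjusted threshold.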

How the data were processed

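Poly(A)-selected RNA of 12 libraries was reverse transcribed with random hexamers and size selected, per the labels' protocols. The authors deposited 1 table of FPKM per gene and library; its header names no unit, and FPKM is read from the values and from TopHat, Cufflinks and build dm3, which the submitters' processing notes list without versions. Counts and depth are unknown. Symbols for 10308 of 10893 identifiers (94.6%), transcript lengths and overlaps came from the BDGP6.54 annotation, another build. The overlaps were read from gene coordinates within that annotation.

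Groups of 1 library were compared with limma 3.58.1 in R 4.3.3 on log2(FPKM + 1), which understates differences of low genes. Matched pairs served as error: disc and larva at 72, 96 and 120 h in 1 fit, and eye portion, antenna portion and whole disc at 96 and 120 h in the other. Each fit had 6 libraries, 2 residual degrees of freedom and a filter of 1 FPKM in 2 libraries, with Benjamini-Hochberg adjustment over all genes and a threshold of 0.05. Single pairs were described without a test by a size rule, a 2-fold difference in log2(FPKM + 1) where the higher library reached 5 FPKM. The fits were also run on simulated data, where most changes of 2-fold were not called. The absence of a call thus does not show that a gene was unchanged.

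The members and gene lists were chosen with earlier results of these data known. Named were members past the threshold or the size rule, or the largest per complex where many passed, and 17 fixed core members in every comparison, with L copies beside their counterparts. Alternatives were other pseudocounts (0.1 and 5), filters, median-ratio scaling, rescaling on genes of at least 200 nt, eBayes without trend, and leaving out each library. Promoter motifs and sequences were not analysed here. Tables were handled with Python 3.11.15 and pandas 2.3.3.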

Additional observations from a re-analysis of the deposited data

Results flagged for a closer look

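For 5 subunit genes, the difference between 120 h and 96 h had opposite signs in whole discs and in a portion of the disc, past 2-fold in each. With 1 library per group the difference between tissues was not tested. UQCR-11 was at -1.70 on the log2(FPKM + 1) scale in whole discs, 1.00 in the eye portion and 1.16 in the antenna portion. ND-MWFE was at -1.48 in whole discs and 1.00 in the eye portion, and UQCR-6.4 at -1.58 in whole discs and 1.21 in the eye portion. ND-AGGG was at -1.13 in whole discs and 1.47 in the antenna portion. ATPsynF ran the other way, at 1.54 in whole discs and -2.63 in the eye portion.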

How the results depend on the processing

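No paired analysis was possible because each group holds 1 library and the labels pair libraries by age only, which the fits already hold as a term. For disc against larva, members called were 1 as reported, 2 with a pseudocount of 0.1, 3 with a minimum of 5 FPKM, 8 (2 higher, 6 lower) after rescaling on genes of at least 200 nt, 2 with eBayes without trend and robust settings, and 6 with the 72 h pair left out. Without 1 library each they ran between 0 and 6. The fits without either 72 h library gave the same estimates as the fit without the 72 h pair. The share of all genes called under the alternatives, here and below, is not given. The median over members was -0.85 with median-ratio scaling and 0.34 after rescaling, against -0.11 as reported, and between -0.38 and 0.12 without 1 library. For 120 h against 72 h, members called were 1 as reported, 4 with a pseudocount of 0.1, 13 with a minimum of 5 FPKM, 0 with median-ratio scaling and 5 (3 higher, 2 lower) after rescaling. Without 1 library they ran between 0 and 30, with a median over members between -2.04 and -1.04. For 120 h against 96 h, where 0 were called, 1 was called after rescaling (COX7AL2, higher) and 1 with the portions alone (ND-B14.5A, lower), and between 0 and 1 without 1 library. By the size rule, members past it were 6 against 3 for WPP and 4 against 2 for mouthparts with no minimum level, and 2 against 4 for the eye portion at 120 against 96 h with a pseudocount of 5. Median-ratio scaling gave 8 against 5 for discs at 96 against 72 h and 60 against 39 for larvae at 120 against 96 h. With the same scaling, disc against larva gave 54, 56 and 5 at 72, 96 and 120 h, against 14, 12 and 8. Fewer genes are tested under a stricter filter and rescaling changes every library total; otherwise the cause was not tested. Of 962 values of named members under alternatives, 899 kept their sign and 929 kept their side of the threshold, with none that was called changing sign. With 1 library per group, no fit can separate a library from its condition.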
